A study of Mus musculus with 40 samples.

Results

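The contrast described here is that of DBA with C57/Bl6 mice, all of which had gone through repeated cross fostering (RCF). The RNA came from tissue described as ventral tegmental area. The comparison took the 10 libraries labelled DBA and RCF and the 10 labelled C57 and RCF, 5 male and 5 female in each strain. The series holds 40 libraries, and sex was a covariate. The mice were adults at sampling, and every litter had been moved to a new foster mother daily from postnatal day 1 to day 4. The other 20 libraries came from control mice of the same strains and sexes and served here as a separate set. The sources used here name neither the foster mothers' strain, the substrains, nor the litter, animal or sequencing batch behind a library. The p-values therefore rest on library-to-library spread, which may be technical in part.

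The ventral tegmental area is a midbrain nucleus whose dopamine neurons project to the striatum and the prefrontal cortex, and GABA and glutamate neurons lie among them. C57 and DBA are old inbred lines that differ at many loci in sequence, gene copy number and mobile elements. They are widely compared in work on reward and stress, and the mouse reference genome is that of C57BL/6J.

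RNA was read as single reads of 75 nt, and the deposited values were read counts per gene. Total counts ran from 20687263 to 28179071 in the 10 DBA RCF libraries and from 21208208 to 23922414 in the 10 C57 RCF libraries. Values below are CPM, counts scaled to library size with TMM factors, given as lowest, median and highest of the 10 libraries of a strain. Fold changes are log2 of DBA over C57 with their standard error (SE), and adjusted p-values are Benjamini-Hochberg values of edgeR's quasi-likelihood test over all genes tested. In 40 of 40 libraries the sex markers matched the label. The tissue taken varied between libraries of both strains. The dopamine synthesis gene Th ran from 12.4 to 935 CPM in DBA (median 30.7) and from 0.725 to 1259 CPM in C57 (median 768). Also, 2 C57 females carried markers of other regions. Hoxb5, a hindbrain and spinal cord gene, was at 33.8 CPM in replicate 4 and the serotonin enzyme gene Tph2 at 238 CPM in replicate 5.

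The strains differed at a large share of the genes, mostly by little. Of 17490 genes tested, 5244 (30.0%) differed at an adjusted p under 0.05, with 2484 (14.2%) higher in DBA and 2760 (15.8%) lower. The median difference of the called genes was 0.38 on the log2 scale, and 3454 of them (65.9%) differed by less than 1.5-fold. At least 4-fold differences were found for 406 genes, 209 higher and 197 lower in DBA. The 10 libraries of one strain lay wholly above or below the 10 of the other for 789 genes (4.51% of those tested), 402 with DBA above and 387 with DBA below. When the mean levels of dopamine neuron, forebrain and hypothalamus markers entered the fit as covariates, 2085 genes (11.9%) were called, of which 1824 were among the 5244. The call was kept for 325 of the 406 genes that differed at least 4-fold and for 918 of the 3454 that differed less than 1.5-fold.

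Several genes of known function were far higher in DBA. Wdfy1 (chr1:79702262-79776143, GRCm38, minus strand), which encodes an adaptor of Toll-like receptor signalling on endosomes, measured 77.6, 82.7 and 91.3 CPM in DBA and 15.01, 17.9 and 22.6 CPM in C57. Every DBA library exceeded every C57 library, and the log2 fold change was 2.21 (SE 0.070, adjusted p = 4.36e-16). Stab2 (chr10:86841198-87008025), a scavenger receptor for hyaluronan known from sinusoidal endothelium, measured 54.4, 77.3 and 99.5 CPM in DBA against 0.628, 1.34 and 2.61 CPM in C57. It was thus close to background in C57 and plainly detected in all 10 DBA libraries, and the difference was 5.81 on the log2 scale (SE 0.19, adjusted p = 2.23e-15). Alad, which encodes an enzyme of heme synthesis and lies in a segment known to be duplicated in DBA, measured 58.8, 68.8 and 79.3 CPM in DBA and 19.05, 23.8 and 26.3 CPM in C57. The strains again did not overlap, and DBA was higher by 1.56 (SE 0.061, adjusted p = 1.48e-14). Hddc3, a nucleotide hydrolase, was higher by 1.77 (SE 0.060) on the log2 scale and the zinc finger gene Zfp949 by 1.35 (SE 0.048). Prss41, a serine protease gene, had a median of 9.35 CPM in DBA and 0.0902 CPM in C57. Tuba1c, an alpha-tubulin gene, had medians of 14.4 and 0.933 CPM, and as 8 other tested genes match its transcript at 95% identity or more over 75 nt, its reads could have been split among them.

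Others were far lower in DBA. Neat1 (chr19:5824708-5845478), the long noncoding RNA that builds nuclear paraspeckles, measured 10.6, 12.7 and 16.4 CPM in DBA and 113, 160 and 198 CPM in C57. The lowest C57 library stood far above the highest DBA library, and the log2 fold change was -3.62 (SE 0.12, adjusted p = 3.01e-15). Cox7a2l (chr17:83501918-83517330), which encodes an assembly factor of respiratory supercomplexes, measured 25.6, 26.8 and 31.2 CPM in DBA and 88.6, 97.5 and 110 CPM in C57. The strains did not overlap and differed by -1.87 on the log2 scale (SE 0.046, adjusted p = 4.62e-18), while Gm6969, a copy that matches it fully over 201 nt, averaged 16.02 CPM in DBA and 0.50 CPM in C57. Fggy (chr4:95557507-95926939), a carbohydrate kinase gene, measured 0, 0.0846 and 0.314 CPM in DBA, 26 counts over all 10 libraries, against 8.91, 11.7 and 14.2 CPM in C57. DBA lay wholly below C57, by -6.71 on the log2 scale (SE 0.28, adjusted p = 5.35e-14). The acetyltransferase family gene Nat8f4 had medians of 1.03 CPM in DBA and 13.7 CPM in C57, and the zinc finger gene Zfp970 had 0.0627 and 7.19 CPM, although 13 other tested genes share near-identical stretches with Zfp970. Tnni1, the slow muscle form of troponin I, had medians of 0.452 and 7.69 CPM. Hjurp, a chaperone of the centromeric histone, was lower by 1.52 (SE 0.052) on the log2 scale, Srp9 of the signal recognition particle by 1.38 (SE 0.042) and the hydrolase gene Nudt19 by 1.31 (SE 0.056). Among unnamed gene models, the noncoding 1500004A13Rik had medians of 0.371 CPM in DBA and 47.8 CPM in C57. Gm26782, annotated as antisense, was lower by 2.27 (SE 0.11), and since the strand setting of the counting is not given, its reads cannot be told apart from those of a gene on the other strand. The model 4833420G17Rik was lower by 1.80 (SE 0.069). Myoc, which encodes myocilin, and Tph2 also ranked among the largest differences but varied widely within C57. Myoc was at 22.6 to 65.9 CPM in the 5 C57 females and in 1 C57 male and at 2.3 CPM or less in the other 4, with 1.09 CPM as the highest DBA value (-4.80, SE 0.79, adjusted p = 0.000145). Tph2 ran from 0 to 238 CPM in C57 (-5.43, SE 1.64, adjusted p = 0.0185).

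**Figure D1:**
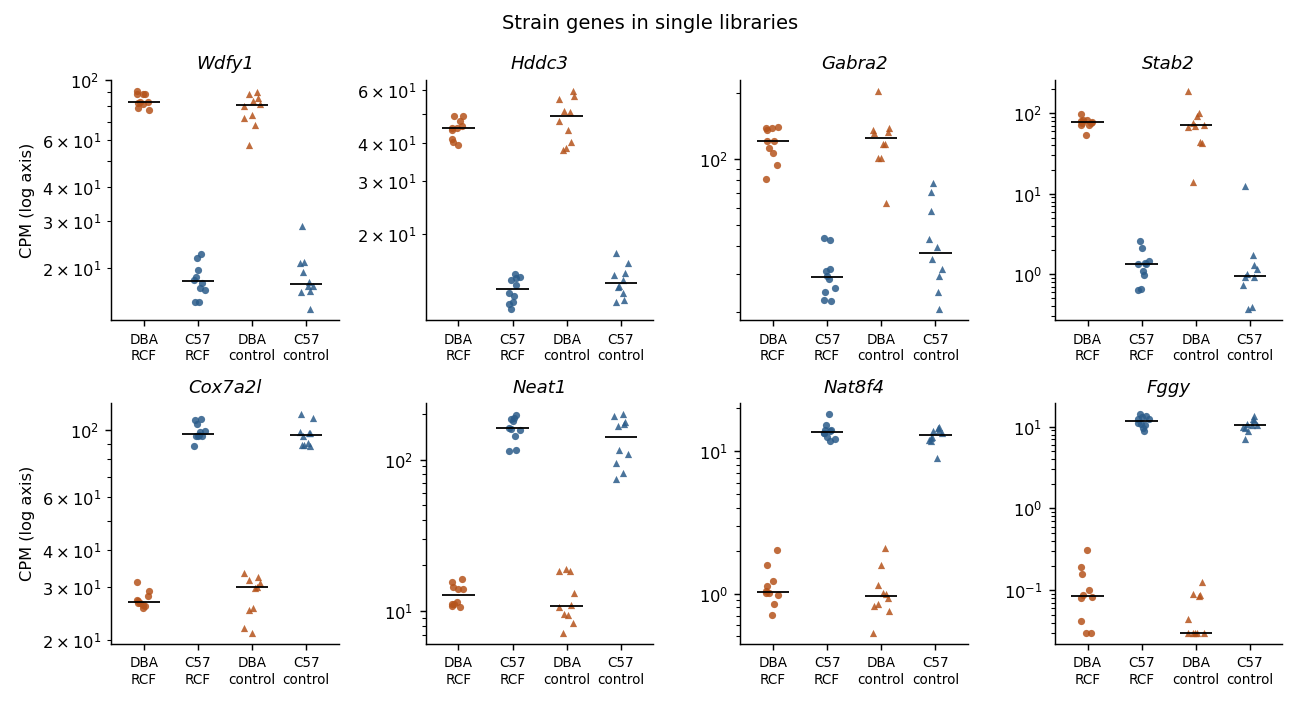
CPM on log axes for 8 strain genes in single libraries of DBA (orange) and C57 (blue) mice, RCF libraries as circles and controls as triangles, with the median as a bar and values under 0.03 CPM drawn at 0.03. In the RCF libraries DBA lies wholly above C57 in the upper row (Wdfy1 77.6 to 91.3 against 15.01 to 22.6 CPM) and wholly below it in the lower row (Neat1 10.6 to 16.4 against 113 to 198 CPM).

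Many of the smallest p-values belonged to genes that have a near-identical copy elsewhere in the genome. Of the 12 named genes with the smallest p among those higher in DBA, Rpl3-ps1, Rpsa-ps10, Atp6v0c-ps2, Eno1b, Hmga1b and Tpm3-rs7 are such copies, and so are the leading gene models Gm13394, Gm15459 and Gm6166. For 3 pairs, a stretch of 75 bases, the length of a read, is shown from the coding sequence of the gene and from its copy, both 5′ to 3′ on the transcribed strand from GENCODE M21 transcripts of GRCm38. Capitals mark the base that differs within the stretch. Gapdh, a glycolytic enzyme gene, lies at chr6:125161715-125166467 and its copy Gm13394 at chr2:28933610-28934609.
Gapdh: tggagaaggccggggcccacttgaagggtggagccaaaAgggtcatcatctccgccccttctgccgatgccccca
Gm13394: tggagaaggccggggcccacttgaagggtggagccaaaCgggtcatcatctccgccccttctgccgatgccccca
Rpl3, which encodes a protein of the large ribosomal subunit, lies at chr15:80077791-80091868 and Rpl3-ps1 at chrX:13202571-13203780.
Rpl3: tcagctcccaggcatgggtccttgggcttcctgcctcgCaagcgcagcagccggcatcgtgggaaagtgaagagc
Rpl3-ps1: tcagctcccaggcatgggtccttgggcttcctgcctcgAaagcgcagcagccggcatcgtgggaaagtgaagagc
Atp6v0c, a proton pump subunit gene, lies at chr17:24163866-24169702 and Atp6v0c-ps2 at chr6:37806086-37806550.
Atp6v0c: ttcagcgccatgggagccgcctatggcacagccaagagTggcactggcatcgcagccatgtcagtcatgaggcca
Atp6v0c-ps2: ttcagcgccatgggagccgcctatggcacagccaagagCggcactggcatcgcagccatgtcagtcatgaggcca
Over the whole alignment, Gm13394 differs from Gapdh at 1 of 999 bases, Rpl3-ps1 from Rpl3 at 2 of 1209 and Atp6v0c-ps2 from Atp6v0c at 1 of 465. Of all stretches of 75 bases in the copy, 91.9%, 88.3% and 80.8% are identical to a stretch of the gene.

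In all 3 pairs the copy was higher and the gene lower in DBA. Gm13394 measured 108, 119 and 129 CPM in DBA and 0.418, 0.573 and 0.864 CPM in C57, a difference of 7.59 on the log2 scale (SE 0.094, adjusted p = 1.55e-23). Gapdh itself measured 554, 626 and 682 CPM in DBA against 940, 1014 and 1232 CPM in C57, a difference of -0.75 (SE 0.051, adjusted p = 2.92e-10). The strains did not overlap for either member. Rpl3-ps1 was higher by 6.22 (SE 0.12) and Rpl3 lower by 0.75 (SE 0.066), and Atp6v0c-ps2 was higher by 4.61 (SE 0.12) and Atp6v0c lower by 1.21 (SE 0.046). The same pair of directions held for Gm15459 and the chaperone gene Hspa8, Rpsa-ps10 and the ribosomal gene Rpsa, Eno1b and the enolase gene Eno1, Tpm3-rs7 and the tropomyosin gene Tpm3, Gm6166 and the fatty acid binding gene Fabp5, and Hmga1b and the chromatin gene Hmga1. The sum of gene and copy was nearest between the strains for Hmga1, 54.2 ± 3.96 CPM in DBA and 54.2 ± 9.78 CPM in C57 (SD, n = 10 each). For Tpm3 the sum was 69.5 ± 4.96 CPM in DBA and 76.3 ± 4.91 CPM in C57. For Gapdh it was 740 ± 41.0 and 1038 ± 84.9 CPM, so the copy gained 119 CPM where the gene lost 417 CPM. The sum was also lower in DBA for Atp6v0c, 188 ± 11.1 CPM against 368 ± 27.8 CPM. The treatment of reads that match several places in the genome is not given, and the levels of these genes and copies are therefore uncertain.

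**Figure D2:**
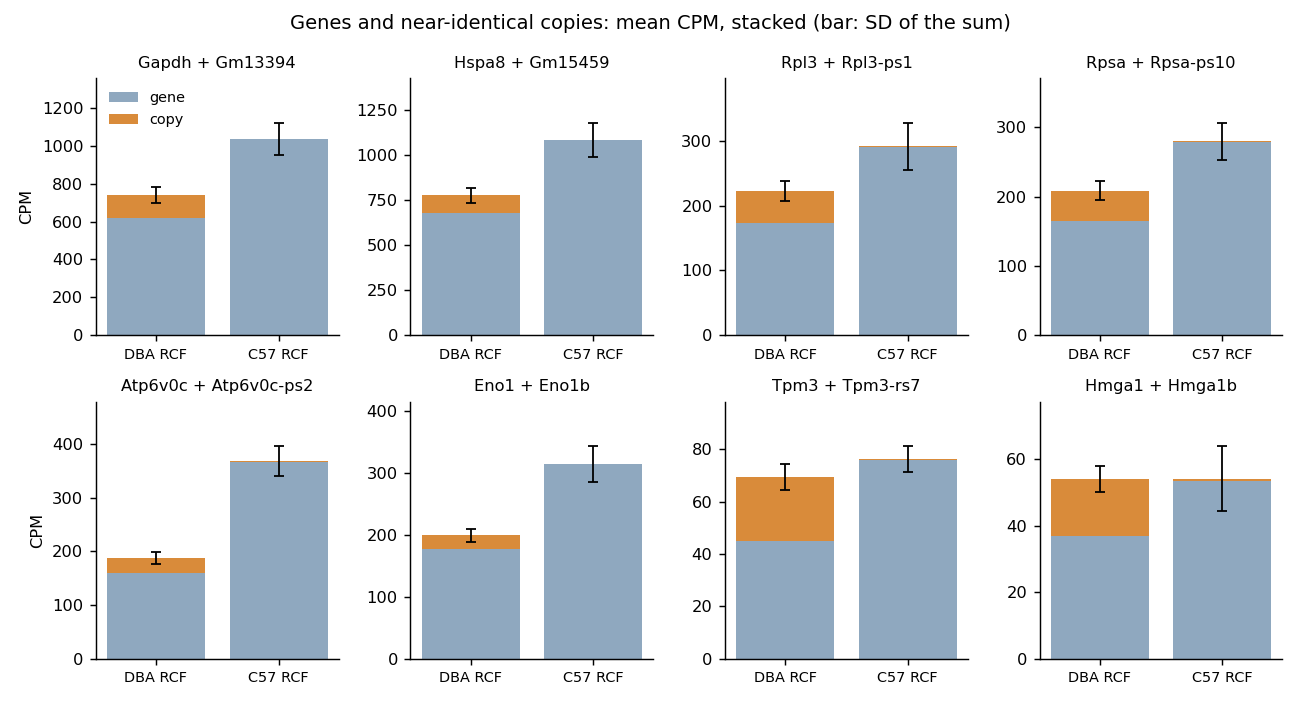
Mean CPM of 8 genes (grey-blue) with that of a near-identical copy stacked on top (orange) in the 10 DBA and 10 C57 RCF libraries, with the SD of the sum as error bar and axes from 0. The copy is nearly absent from the C57 bars, and the sums are close for Hmga1 (54.2 and 54.2 CPM) but not for Gapdh (740 and 1038 CPM).

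Pseudogenes and their matching genes were also counted over the whole table. Of 530 pseudogenes tested, 146 were higher and 45 lower in DBA, and at 4-fold or more 99 were higher and 11 lower. The share of pseudogenes called was 36.0%, beside 30.0% of all genes tested. A protein-coding gene with 95% identity or more over at least 75 nt was tested for 383 pseudogenes, and these pointed to 262 distinct genes. Of those 262 genes, 109 (41.6%) were lower in DBA and 22 (8.40%) higher, with a median log2 fold change of -0.11. Of the other 14494 protein-coding genes, 2324 (16.03%) were lower and 2096 (14.5%) higher, with a median of -0.01. The matching gene was lower for 69 of the 115 matched pseudogenes higher in DBA (60%), for 16 of the 27 lower in DBA (59.3%) and for 107 of the 241 not called (44.4%), so genes were lower about as often beside a lower copy as beside a higher one. Rplp0, Scoc, Cox7a2l and Rpl29 of the leading genes lower in DBA each have such copies. Gm8730, the copy of the ribosomal gene Rplp0, averaged 9.18 CPM in DBA and 0.160 CPM in C57, while Rplp0 was lower by 1.05 (SE 0.040). Rpl29 differed from this: it was lower by 1.69 (SE 0.065), and its nearest tested match Rpl29-ps2 averaged 0.336 CPM in DBA and 0.404 CPM in C57.

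Genes known to vary between these strains were looked up from a list. Of 13 tested members, 6 were higher and 4 lower in DBA, beside 14.2% and 15.8% of all genes tested. Gabra2 (chr5:70957597-71095849), a GABA-A receptor subunit gene that carries an intronic variant lowering its expression in C57BL/6J, measured 81.2, 121 and 141 CPM in DBA and 22.5, 28.8 and 43.6 CPM in C57. The strains did not overlap and the log2 fold change was 1.98 (SE 0.13, adjusted p = 3.27e-10). Glo1, which encodes glyoxalase 1 and is duplicated in some inbred lines including DBA, measured 117, 130 and 134 CPM in DBA and 62.9, 68.0 and 82.8 CPM in C57 (log2 fold change 0.89, SE 0.045), and it has a near-identical copy, Gm13443, that averaged 4.30 and 0.414 CPM. Gpnmb, which carries a stop codon in DBA/2J, was at 0 to 0.0796 CPM in DBA and at 0.591 to 4.35 CPM in C57. Mpdz, a scaffold protein gene linked to alcohol withdrawal in mice, was lower in DBA by 0.47 (SE 0.066) and Myo5a, the gene of the dilute coat colour, by 0.26 (SE 0.070). Kcnj9, a GIRK channel subunit gene, was higher by 0.55 (SE 0.12) and Cyfip2, an actin regulator gene, by 0.29 (SE 0.070). Ahr (0.07, SE 0.13), Gsta4 (-0.03, SE 0.076) and Tyrp1 (-1.24, SE 0.59) did not pass the test.

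Markers of dopamine neurons were lower in DBA, with wide spread in both strains. Of 23 markers, 13 were lower and 0 higher, beside 15.8% and 14.2% of all genes tested. Their median log2 fold change was -2.01, beside -0.01 for all genes tested. Th, the rate-limiting enzyme of dopamine synthesis, measured 12.4, 30.7 and 935 CPM in DBA and 0.725, 768 and 1259 CPM in C57. DBA female replicate 5 was the only DBA library above 100 CPM, while 7 C57 libraries were above 300 CPM and the other 3 (female replicate 4, male replicates 4 and 5) at 38.5 CPM or less. The log2 fold change of Th was -2.94 (SE 1.04, adjusted p = 0.0402), and the call was lost in 15 of the 20 fits that left out 1 library. Slc18a2, the vesicular monoamine transporter gene, had medians of 30.2 CPM in DBA and 491 CPM in C57 (log2 fold change -2.71, SE 0.85), and Ddc, which makes dopamine from DOPA, had 30.0 and 440 CPM. Slc6a3, the dopamine transporter gene, had medians of 24.8 and 1241 CPM and did not pass (-3.46, SE 1.55, adjusted p = 0.101), nor did the receptor gene Drd2 (-1.31, SE 0.54, adjusted p = 0.0744). With marker levels of 3 regions as covariates, one of which was the dopamine list itself, 1 of the 23 markers was called, Chrna6, a nicotinic subunit gene. In controls 0 of the 23 were called. Without the 2 C57 females that carried other regions' markers, 15 were lower.

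Other region markers differed between libraries as well. Of 12 hypothalamus and mammillary body markers, 0 passed the test, with a median of 0.88, and their summed level ran from 92.3 to 421 CPM in DBA and from 35.5 to 471 CPM in C57. Pmch, the gene of melanin-concentrating hormone from the lateral hypothalamus, had medians of 25.9 CPM in DBA and 2.54 CPM in C57, and was chosen here after its values were seen. Of 11 forebrain markers 2 were lower, among them Slc17a7, which reached 1076 CPM in C57 female replicate 4 and lost its call without that library, as in 13 of the 20 fits that left out 1 library. Of 7 serotonin neuron markers 4 were lower, beside 15.8% of all genes tested: Tph2, Ddc, Gata2 and Gata3. Ddc is also in the dopamine neuron list, and Gata2 and Gata3 are also in the GABA neuron list. The call of Tph2 was lost without C57 female replicate 5. In bulk tissue, fewer cells of a type and less RNA per cell cannot be told apart. The part of tissue content in the differences reported here was not tested beyond the covariate fit and the fit without the 2 C57 females, which called 5469 genes.

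**Figure D3:**
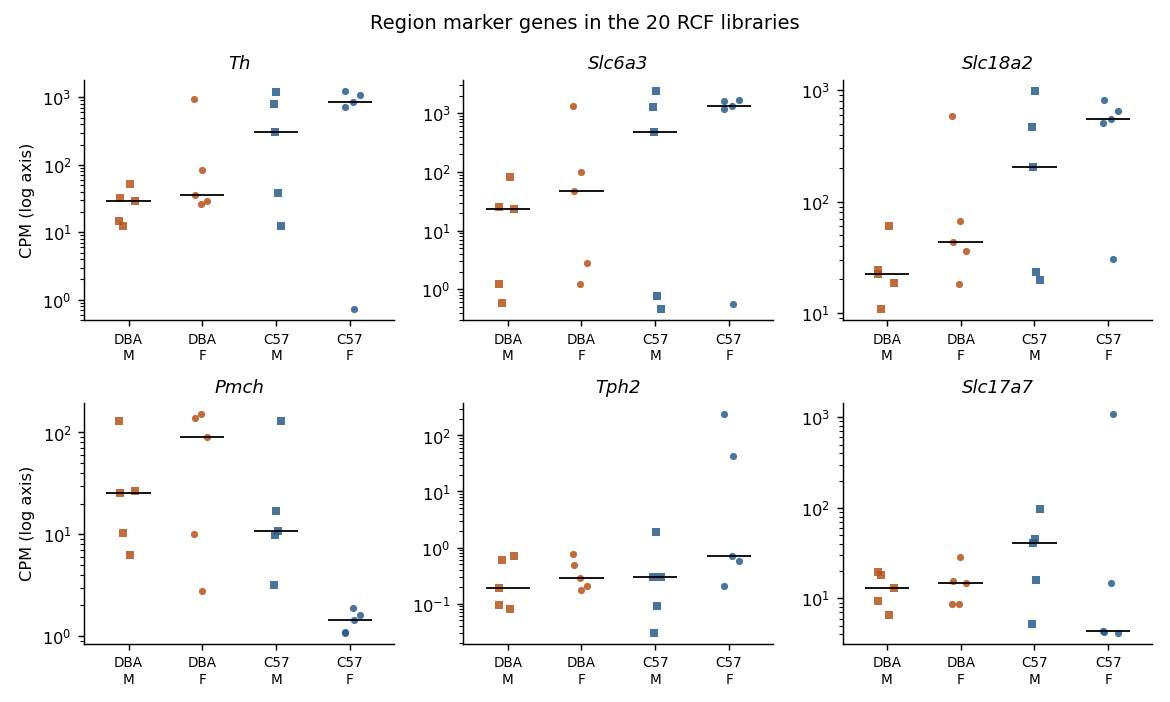
CPM on log axes of 6 region markers in the 20 RCF libraries by strain and sex (M and F), with the median of each group as a bar. Th is above 300 CPM in 7 C57 libraries and 1 DBA library, and Tph2 and Slc17a7 are high in few libraries, all of C57. Pmch runs from 2.75 to 151 CPM in DBA (median 25.9) and from 1.08 to 129 CPM in C57 (median 2.54).

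GABA-A and glutamate receptor genes were called about as often as all genes tested. Of 15 GABA-A receptor subunits 4 were higher and 1 lower in DBA. Beside Gabra2, Gabrb2 measured 66.8, 108 and 144 CPM in DBA and 40.6, 68.7 and 105 CPM in C57 (log2 fold change 0.58, SE 0.11, adjusted p = 0.000371), and Gabrr2, a rho subunit, was lower by 1.41 (SE 0.23). Of 25 glutamate receptor genes 7 were higher and 0 lower, with a median of 0.21. The NMDA receptor subunit gene Grin2d measured 97.6, 117 and 128 CPM in DBA and 32.3, 85.5 and 93.5 CPM in C57, with every DBA library above every C57 library and a log2 fold change of 0.50 (SE 0.13). Grin3a was higher by 0.44 (SE 0.10) and the metabotropic receptor gene Grm7 by 0.52 (SE 0.14). With the marker covariates, 2 of the 25 glutamate receptor genes and 2 higher GABA-A subunits were called. Of 31 genes of synaptic vesicle release, a smaller share than of all genes tested was called: 1 was higher (the active zone gene Pclo, 0.23, SE 0.041) and 2 were lower (Syp, -0.16, SE 0.051, and Cplx1, -1.07, SE 0.36). The Cplx1 call was lost in 7 of the 20 fits without 1 library. Its value turned to 0.20 with the covariates, but Cplx1 is in the dopamine neuron list used as a covariate. With the covariates 0 genes of the vesicle release list were lower.

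Of 13 opioid and endocannabinoid genes 4 were higher in DBA and 0 lower, a share near the 30.0% called of all genes tested. Oprm1, the mu opioid receptor gene, measured 2.52, 5.37 and 6.81 CPM in DBA and 1.14, 2.67 and 5.39 CPM in C57. The strains overlapped, with a log2 difference of 0.84 (SE 0.20, adjusted p = 0.00356). Cnr1, the cannabinoid receptor gene, was higher by 0.48 (SE 0.16), Faah, which degrades anandamide, by 0.23 (SE 0.082) and the nociceptin receptor gene Oprl1 by 0.24 (SE 0.081). Faah was the 1 of these called with the marker covariates, but its call was lost in 13 of the 20 fits that left out 1 library. Of 14 nicotinic and muscarinic receptor genes 1 was higher, the muscarinic Chrm3 (0.59), and 4 nicotinic subunits were lower: Chrna3 had medians of 4.02 CPM in DBA and 19.3 CPM in C57 (log2 fold change -2.05, SE 0.43, adjusted p = 0.00148), and Chrna6 had 6.08 and 207 CPM. Both were also called with the covariates, although Chrna6 is itself in the dopamine neuron list used as a covariate. The other 2 nicotinic subunits, Chrna5 and Chrna2, were not called with them. The share called of these 14 receptor genes was near the 30.0% of all genes tested. Of 32 potassium channel genes 4 were higher and 3 lower, a share below that of all genes tested, and 7 and 6 without the 2 C57 females. Kcnj10, the inward rectifier of astrocytes, measured 606, 707 and 899 CPM in DBA and 374, 449 and 538 CPM in C57, a log2 difference of 0.66 (SE 0.078, adjusted p = 1.42e-06) with no overlap, and was called with the covariates too. Of 15 acid-sensing and carbon dioxide response genes 2 were higher, Asic1 (0.28, SE 0.090) and the bicarbonate transporter gene Slc4a8 (0.23, SE 0.053), and 2 lower, among them Asic3 (medians 0.0439 and 0.677 CPM). This share, too, was near that of all genes tested.

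Markers of microglia and of vessels were lower in DBA. Of 15 microglia markers 11 were lower and 0 higher, with a median of -0.46, beside 15.8% lower and 14.2% higher of all genes tested. C1qc, a chain of the complement recognition molecule, measured 9.58, 11.5 and 15.9 CPM in DBA and 22.5, 26.0 and 38.7 CPM in C57. No DBA library reached the lowest C57 library, and the log2 fold change was -1.21 (SE 0.11, adjusted p = 1.67e-08). C1qb was lower by 1.06 (SE 0.10), C1qa by 0.61 (SE 0.10), Siglech by 0.66 (SE 0.11) and Selplg by 0.56 (SE 0.089), and with the covariates these were the 5 markers called. Of 15 endothelial and pericyte markers 9 were lower, with a median of -0.29, and 0 were called with the covariates, while 9 were lower in controls too. Without the 2 C57 females 6 were lower. Cldn5, the claudin of brain vessels, measured 12.2, 19.1 and 24.3 CPM in DBA and 20.8, 26.7 and 36.9 CPM in C57 (log2 fold change -0.50, SE 0.10). Vtn was lower by 0.67 (SE 0.17), Itm2a by 0.33 (SE 0.067) and the organic anion transporter gene Slco1a4 by 0.39 (SE 0.085).

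All 5 erythroid genes tested were lower in DBA. Hbb-bs, a beta globin gene, measured 4.50, 8.60 and 12.3 CPM in DBA and 14.3, 23.3 and 41.3 CPM in C57, with no overlap and a log2 difference of -1.73 (SE 0.21, adjusted p = 4.18e-06). Hba-a2 ran from 0 to 0.161 CPM in DBA and from 1.13 to 3.50 CPM in C57, but its transcript is 99.8% identical to that of Hba-a1, and the pair together differed by -1.89 on the log2 scale of mean CPM. Alas2, the erythroid enzyme of heme synthesis, was lower by 1.84 (SE 0.27). Of 18 myelinating oligodendrocyte markers 9 were lower and 0 higher (median -0.53), beside 15.8% and 14.2% of all genes tested. The myelin protein gene Mal measured 177, 323 and 470 CPM in DBA and 344, 529 and 703 CPM in C57 (log2 fold change -0.73, SE 0.16), and Apod was lower by 1.01 (SE 0.20). None of the 18 was called with the covariates, and 4 were lower without the 2 C57 females that carried other regions' markers. Of 10 precursor markers 4 were lower and of 11 astrocyte markers 3, among them Aqp4 (-0.78, SE 0.21), with 1 higher, the gap junction gene Gja1 (0.18, SE 0.053). In the precursor and astrocyte lists the share called was not far from the 30.0% of all genes tested.

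Immune genes differed in both directions. A list joined B2m to genes of the H2 complex, the mouse major histocompatibility complex. Of its 25 tested members 4 were higher and 9 lower in DBA, beside 14.2% and 15.8% of all genes tested. H2-T22, a nonclassical class I gene, measured 5.12, 9.10 and 12.5 CPM in DBA and 15.7, 23.4 and 27.0 CPM in C57, a log2 difference of -1.30 (SE 0.13, adjusted p = 9.78e-08) with no overlap. H2-T23 was lower by 0.99 (SE 0.11), H2-Q2 by 2.51 (SE 0.31) and B2m, the shared light chain of class I, by 0.57 (SE 0.065). H2-T10, which matches H2-T22 at 97.4% over 1495 nt, was higher by 1.04 (SE 0.19), and the strains carry different H2 haplotypes, so the assignment of reads among these genes is uncertain. Of 24 interferon response genes 3 were lower, led by the RNA sensor gene Ifih1 (-1.16, SE 0.17), and 1 was higher, Xaf1 (0.56, SE 0.13). This share was below the 30.0% called of all genes tested.

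Metabolic genes showed strain differences of single members. Of 31 glutathione and aldehyde genes 5 were higher and 11 lower in DBA, against 3 and 3 with the covariates and 4 and 1 in controls. The share called over all genes tested was 30.0%, against 11.9% with the covariates and 11.0% in controls. Gsr, glutathione reductase, measured 39.6, 44.1 and 46.8 CPM in DBA and 22.4, 24.9 and 29.8 CPM in C57 (log2 fold change 0.77, SE 0.051, adjusted p = 1.68e-10). Aldh7a1, an aldehyde dehydrogenase gene, measured 46.6, 51.3 and 56.7 CPM in DBA and 65.4, 88.2 and 107 CPM in C57 (-0.79, SE 0.067). Neither gene overlapped between the strains. Gstz1 was higher by 0.30 (SE 0.044). Of 38 nuclear genes of mitochondrial redox and respiration 8 were lower, led by Cox7a2l, and 1 was higher, the succinate dehydrogenase subunit gene Sdhb (0.28, SE 0.044). This share was below the 30.0% called of all genes tested.

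Of 20 genes encoded on the mitochondrial chromosome, looked at after their values were seen, 18 were lower in DBA, a share of 90%. The autosomes and X had 23.7% to 34.6% of their genes called, lowest on chromosome 10 and highest on chromosome 17. The small ribosomal RNA gene mt-Rnr1 ran from 1679 to 2360 CPM in DBA and from 2951 to 3771 CPM in C57, with no overlap and a log2 fold change of -0.78 (SE 0.064). The cytochrome oxidase subunit gene mt-Co1 ran from 14435 to 20514 CPM in DBA and from 19489 to 24371 CPM in C57 (-0.35, SE 0.059). The summed CPM of the 20 genes had a median of 52138 in DBA and 71563 in C57. With the covariates 15 of the 20 were called lower. In controls 5 of the 20 were called lower (median log2 fold change -0.35), and 3 without C57 control male replicate 5. Nuclear copies of mitochondrial sequence are common in the mouse genome, and how reads that match them were counted is not given.

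Clustered protocadherins, neuronal adhesion proteins expressed in differing combinations from cell to cell, differed member by member. Of 44 tested genes of the beta and gamma clusters, 16 were higher and 6 lower in DBA, and 13 and 4 with the covariates. Over all genes tested 30.0% were called, and 11.9% with the covariates. In the beta cluster 11 genes were higher and 0 lower. In the gamma cluster Pcdhgb8 measured 2.61, 4.46 and 5.61 CPM in DBA and 0.180, 0.424 and 0.752 CPM in C57, a log2 difference of 3.29 (SE 0.21, adjusted p = 1.19e-10). Pcdhga11 went the other way, with 1.51, 2.81 and 4.59 CPM in DBA and 8.93, 10.8 and 13.9 CPM in C57 (-1.96, SE 0.15). Neither overlapped between the strains. Pcdhgb6 was lower by 1.27 (SE 0.14) and Pcdhga4 higher by 1.14 (SE 0.098). Gamma genes share their last exons, and Pcdhgb8 and Pcdhgb6 match at 99.9% over 2127 nt, so reads from the shared part cannot be assigned to one of them. Among 27 imprinted genes 6 were higher and 1 lower, no larger a share than the 30.0% of all genes tested, against 1 and 2 with the covariates. Ndn, a paternally expressed gene of the Prader-Willi region, measured 502, 609 and 773 CPM in DBA and 216, 411 and 559 CPM in C57 (0.62, SE 0.12), and the paternally expressed Peg3 and Usp29 were higher by 0.40 (SE 0.096) and 0.55 (SE 0.14). Of these 3, Ndn was called with the covariates.

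**Figure D4:**
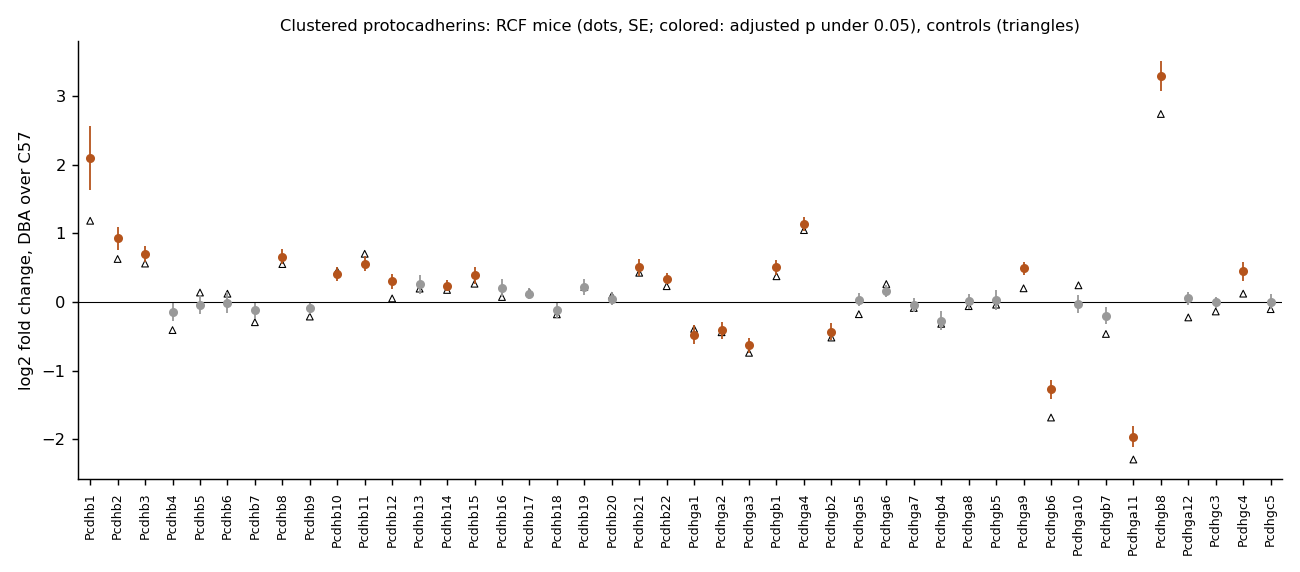
Log2 fold change of DBA over C57 for 44 clustered protocadherins in RCF mice (dots with SE; orange where the adjusted p was under 0.05, grey otherwise) and in controls (open triangles). Most beta genes lie near or above 0, while gamma genes range from -1.96 (Pcdhga11) to 3.29 (Pcdhgb8).

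Stress hormone genes differed at 3 of 11 tested members, a share near that of all genes, and Hsd11b1 alone was called with the covariates. Hsd11b1, which regenerates active glucocorticoid inside cells, measured 6.67, 7.56 and 10.5 CPM in DBA and 10.2, 17.8 and 34.9 CPM in C57, a log2 difference of -1.21 (SE 0.18, adjusted p = 3.54e-05). Crhbp, the binding protein of corticotropin-releasing hormone, measured 15.9, 25.9 and 57.6 CPM in DBA and 1.19, 13.0 and 22.3 CPM in C57 (1.18, SE 0.30, adjusted p = 0.00684). Both genes overlapped between the strains. Nr3c1, the glucocorticoid receptor gene, was higher by 0.20 (SE 0.072, adjusted p = 0.0376), a call lost in 10 of the 20 fits without 1 library. The receptor gene Crhr1 (-0.61, SE 0.26, adjusted p = 0.0833) and the receptor chaperone gene Fkbp5 (-0.05, SE 0.093, adjusted p = 0.697) did not pass. Of 18 glucocorticoid-responsive genes 5 were lower, among them Klf9 (-0.42, SE 0.094) and Cdkn1a (-0.62, SE 0.17), and 0 higher, whereas in controls 5 were higher and 0 lower. Of all genes tested, 30.0% were called in RCF mice and 11.0% in controls. With the covariates 0 of the 18 were lower and 1 was higher, Pdk4, a kinase gene of fuel choice. The difference between the 2 sets was tested gene by gene and none of the 18 passed. Of 13 immediate early genes, a smaller share than of all genes was called: 2 were lower, Nr4a3 (-0.58, SE 0.15) and Arc (-0.61, SE 0.22), the latter lost in 13 of the 20 fits without 1 library. Fos (-0.62, SE 0.47) and the neurotrophin gene Bdnf (-0.16, SE 0.14) did not pass.

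Most strain differences pointed the same way in males and females. Within males 2207 genes (12.6%) were called and within females 4080 (23.3%), but without the 2 C57 females that carried other regions' markers the order turned, with 3136 in males and 2712 in females. With all libraries, 1483 genes were called in the same direction in both sexes and 4 in opposite directions. The sexes had the same sign for 5238 of the 5244 genes called in all 20 libraries, which include the libraries of both sexes. The test of the difference itself, the strain-by-sex interaction in edgeR, called 0 genes (0.0%), with 1530 at an unadjusted p under 0.05, and DESeq2 called 19. Among the genes with the smallest interaction p were the early response genes Nr4a1 (-1.05 in males and 0.69 in females) and Junb (-0.61 and 1.32), and to Tlr7, a receptor gene for RNA (0.69 and -1.02).

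The controls share no library with the RCF set, and most strain differences had the same direction there. In controls 1942 of 17591 genes (11.0%) were called. Of the RCF calls, 5176 were tested in controls, 4877 (94.2%) had the same sign, beside 75.5% of all tested genes, and 1575 (30.4%) were called in the same direction. Among RCF calls of at least 4-fold, 297 of 366 were called in controls in the same direction and 363 had the same sign. Across the 5176 genes, which are not independent replicates, the log2 fold changes had a Pearson r of 0.94, and the median ratio of the control to the RCF difference was 0.70 (0.68 without C57 control male replicate 5). These genes were chosen by their RCF call, which by itself can bring the ratio under 1, so the ratio does not compare the 2 sets of mice. C57 control male replicate 5 stood apart, with Gm13394 at 30.6 CPM, below the lowest DBA control at 102 CPM and above the other C57 controls, which were under 1 CPM. It also lay between the other C57 controls and the DBA controls for Gm15459 (23.9 CPM), Rpsa-ps10 (12.6 CPM) and Stab2 (12.6 CPM). Its Cox7a2l, at 89.3 CPM, was within the range of the other C57 controls. Without this library 4817 of 5203 genes had the same sign and 1514 were called in the same direction. Wdfy1 differed by 2.04 in controls (2.14 without that library), Neat1 by -3.50 (-3.57) and Stab2 by 5.30 (6.23). Th differed by -0.92 in controls and did not pass the test (adjusted p = 0.745). Mmp14, a membrane metalloproteinase gene, was the 1 gene called in opposite directions, at 0.26 in RCF mice (adjusted p = 0.0428) and -0.39 in controls (adjusted p = 0.0467), and the difference of these values did not pass (adjusted p = 0.445).

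**Figure D5:**
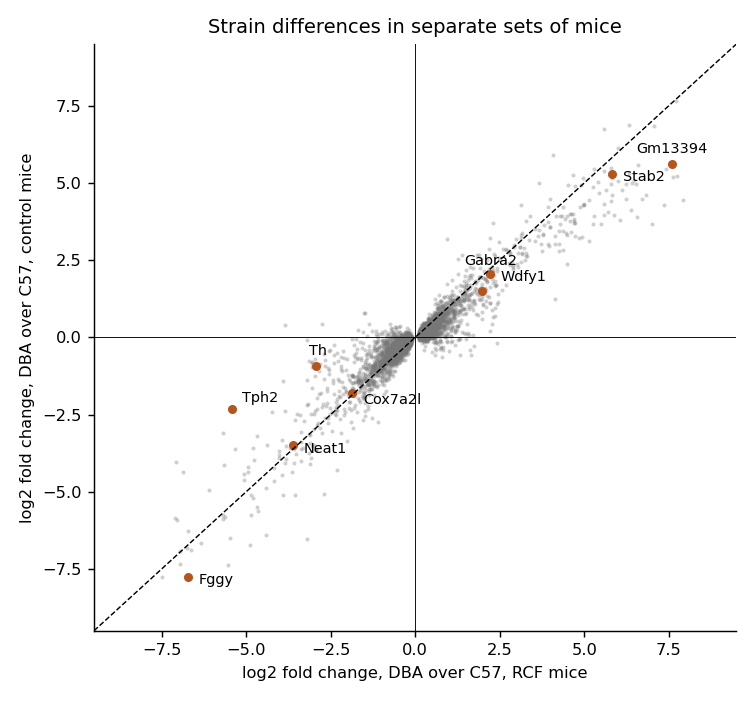
Log2 fold change of DBA over C57 in control mice against that in RCF mice for the 5176 genes called in RCF mice and tested in controls, with the line of equal values dashed and 9 genes marked. Most points share their sign. The control difference is typically the smaller one (median ratio 0.70), which choosing genes by their RCF call can produce by itself. Th (-2.94 in RCF mice and -0.92 in controls) and Tph2 (-5.43 and -2.32) are among the marked genes, and their RCF calls were lost in fits without 1 library.

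The difference between strain effects in RCF mice and in controls was tested over all 40 libraries and 18441 genes. It passed for 2 genes (0.0108%), both unnamed gene models. Gm2451 (chr3:139649379-139650377), a processed pseudogene 99.6% identical to Gapdh, was at 0.195 to 0.517 CPM in DBA RCF mice and 0.130 to 0.674 CPM in C57 RCF mice. In controls it stood at 17.6 to 20.9 CPM in all 5 DBA females and at no more than 0.687 CPM elsewhere. The interaction was -2.83 on the log2 scale (adjusted p = 5.64e-05). Gm48159 (chr10:29534717-29614471), annotated as antisense, measured 0.830, 1.38 and 2.52 CPM in DBA RCF mice and 0.682, 2.15 and 5.57 CPM in C57 RCF mice. In controls it ran from 0 to 0.221 CPM in DBA and from 0.368 to 3.50 CPM in C57, an interaction of 2.91 (adjusted p = 0.0308) that was lost in 20 of 40 fits without 1 library. Next in order of p came Dr1, a repressor of transcription, at -0.21 in RCF mice and 0.19 in controls (adjusted p = 0.0982).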

How the data were processed

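Per the labels' protocols, RNA came from frozen punches and was made into strand-keeping mRNA libraries, read as single reads of 75 nt. The build was GRCm38 (mm10), and the tools listed are bcl2fastq 2.20, cutadapt 1.11 and FastQC, per the submitters' processing notes. The sources used here do not give the aligner, the counter with its strand setting, or the annotation. The authors deposited raw counts per gene for 55471 genes, with no normalization. Coordinates come from GENCODE M21.

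Samples were grouped by their labels. Genes were tested with edgeR 4.0.16 in R 4.3.3 (robust quasi-likelihood, TMM, filterByExpr, Benjamini-Hochberg at 0.05), with strain and sex as terms over the 20 RCF libraries, 17 residual degrees of freedom. DESeq2 1.42.0 and limma 3.58.1 were alternatives. The test was checked on simulated data. No RCF library repeated another of its group: counts of each pair gave a chi-square of 5.51 to 141 times its degrees of freedom. Copies were found with BLAST 2.17.0.

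The comparison and the gene lists were chosen with earlier results of these data known. Named were the 12 genes and 3 gene models of smallest p in each direction, the 5 largest changes with a mean of at least 5 CPM, known strain-variant genes, 9 genes always given and up to 4 called members of each list. Near-identical partners of these genes, further list members, the mitochondrial genes, Pmch and Hoxb5 were named after their values were seen.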

Additional observations from a re-analysis of the deposited data

Results flagged for a closer look

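Among the 44 genes with the smallest p, the largest change or a fixed place in the report, 176 sets of 5 libraries were examined for a library far from the other 4, and 22 held one. A library counted as far when its gap to the nearest of the others, over the range of the set, passed Dixon's 95% critical value, which chance passes in about 1 in 20 sets. C57 female replicate 4 accounted for 8 of them. It was high in Rplp0 (157 CPM), Nudt19 (48.5 CPM), Gm26782 (50.6 CPM), Tnni1 (14.2 CPM), Crhr1 (87.6 CPM) and Fos (53.3 CPM), and low in Drd2 (1.97 CPM) and Slc6a3 (0.569 CPM). DBA female replicate 5 was high in Th (935 CPM), Drd2 (181 CPM) and Slc6a3 (1357 CPM). C57 female replicate 5 was high in Tph2 (238 CPM) and Gm13394 (0.862 CPM).

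Other such libraries were found for Stab2 in DBA male replicate 1 (54.4 CPM, low), Gm6166 in DBA female replicate 3 (29.6 CPM), Neat1 in the same library (13.99 CPM), Cox7a2l in C57 female replicate 3 (105 CPM), Rpl29 in DBA male replicate 5 (28.1 CPM), 4833420G17Rik in DBA male replicate 4 (10.2 CPM), Tph2 in C57 male replicate 2 (1.89 CPM), Myoc in C57 male replicate 1 (26.5 CPM) and Fos in DBA female replicate 4 (46.2 CPM).

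The strain difference itself differed between RCF mice and controls for Gm2451, by -2.83 on the log2 scale, and for Gm48159, by 2.91. For Gm2451 the only libraries above 1 CPM were the 5 control DBA females.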

How the results depend on the processing

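The count of 5244 genes was 5232 with DESeq2 size factors, 4687 without the low-count filter, 5778 with DESeq2, 5276 with limma voom and 4381 with all 40 libraries in one fit. It was 2085 with tissue marker covariates and 667 (336 higher, 331 lower) when tested against a 1.5-fold change. Leaving out 1 library gave 4520 to 5984 genes, in males 1688 to 3077 and in females 2639 to 4303, the lowest without DBA female replicate 4. Leaving out both C57 females that carried other regions' markers, an alternative chosen after seeing the data, gave 5469 genes, 3136 in males and 2712 in females. Same-numbered libraries of the strains did not deviate together (r from -0.29 to 0.24, over 0.1 in 2 of 10 pairs, and 2 of 10 correlated best with their own number). With the number as a replicate block the counts were 4069 in all, 1411 in males and 2467 in females. The strain-by-sex interaction called 1 gene without the low-count filter, 19 with DESeq2 and 0 to 1 with 1 library left out (1 without DBA male replicate 5). The strain-by-treatment interaction called 3 genes with DESeq2 and 1 to 3 with 1 library left out.

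Of 137 called genes named from the strain test, 56 lost the call with the covariates, 24 with the replicate block and 9 with limma voom. With DESeq2 0 of 138 lost it. With the covariates the direction turned for Tph2 (1.02), Slc6a3 (1.46), Crhr1 (0.061), Tyrp1 (0.33), Slc17a7 (0.25) and Cplx1 (0.20). Slc6a3 and Cplx1 are in the dopamine neuron list and Slc17a7 is in the forebrain list, so each was adjusted for a mean that includes it. With 1 library left out, Fkbp5 ran from -0.092 to 0.018 and Gsta4 from -0.069 to 0.017, above 0 without C57 female replicate 2 for Fkbp5 and without C57 female or male replicate 4 (0.015) for Gsta4, which was also above 0 without both C57 females (0.014). The cause was not tested in these cases.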

Other observations

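Some gene groups were not described above. Of 17 genes of dopamine synthesis, transport, breakdown and signalling 7 were lower in DBA and 0 higher, beside 15.8% and 14.2% of all genes tested. Several are also in the dopamine neuron list used as a covariate. With the marker covariates 2 of the 17 were called, among them Maoa. This gene, which encodes monoamine oxidase A, was lower by 0.34 (SE 0.085, adjusted p = 0.00459 by edgeR's quasi-likelihood test), with means of 64.7 CPM in DBA and 81.4 CPM in C57 (n = 10 each). In controls Maoa was not called (adjusted p = 0.747). Of 10 neurotrophin genes 1 was higher, the receptor gene Ntrk3 (0.34, SE 0.11). Of 12 GABA neuron markers 2 were lower, the transcription factor genes Gata2 (-0.66, SE 0.19) and Gata3 (-2.66, SE 0.76), and both are also in the serotonin neuron list. Of 9 markers of meninges and choroid plexus 2 were lower, the collagen gene Col1a2 (-0.72, SE 0.26) and the proteoglycan gene Lum (-0.90, SE 0.31). Their calls were lost in 11 and 7 of the 20 fits without 1 library, and 0 of the 9 were called with the covariates. Of 8 thalamus markers 0 passed, and 0 in controls. In the neurotrophin, GABA neuron and meninges lists the share called was below the 30.0% of all genes tested.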
